A study of Mus musculus with 8 samples.

Results

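The PDGF genes are the 6 mouse genes that encode the platelet-derived growth factors and their receptors: the receptor genes Pdgfra and Pdgfrb and the ligand genes Pdgfa, Pdgfb, Pdgfc and Pdgfd. They were taken by symbol from a table of 55335 gene identifiers, and each of the 6 was found once. Transcript abundance was measured in MC3T3-E1 cells, a pre-osteoblast line from mouse calvaria, in 4 libraries of cells kept with TABS, named by the submitters as Trio-Active bone scaffold, and 4 libraries of cells kept with HA, that is, magnesium-doped hydroxyapatite. Both cultures lasted 3 days. For TABS, a composition was not given in the sources used here, and cells without a scaffold were not analysed here. A difference is therefore between the scaffolds, and which of them moved a gene cannot be told apart. In the library names TABS appears as H and HA as L, and since no transcript tells which scaffold the cells met, a swap of names would turn every direction given here.

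Platelet-derived growth factors are secreted dimers that pair their receptors on the surface of mesenchymal cells. PDGFRα and PDGFRβ are receptor tyrosine kinases, which then recruit the RAS, PI3 kinase and PLCγ pathways. PDGF-A and PDGF-C act mainly through PDGFRα, PDGF-D mainly through PDGFRβ, and PDGF-B binds both. PDGF-A and PDGF-B are cut by furin-like proteases inside the cell, whereas PDGF-C and PDGF-D are secreted as latent forms whose CUB domains are removed outside it. In bone the family is known for driving the migration and division of osteoprogenitors, and PDGFRα marks mesenchymal progenitors.

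Both receptor genes were higher on TABS, Pdgfd was lower, Pdgfa and Pdgfc did not pass the test, and Pdgfb was too low to be tested. Pdgfra averaged 91.6 ± 3.96 FPKM on TABS and 77.5 ± 4.10 on HA, and Pdgfrb 72.3 ± 0.76 and 63.5 ± 2.14 (SD, n = 4 each). Pdgfd averaged 8.13 ± 0.68 FPKM on TABS and 10.01 ± 0.55 on HA. FPKM scales fragments to transcript length and to the library's mapped fragments, so levels of different genes within a library can be set beside one another. Summed FPKM differed between the groups, and results rescaled to TPM are given further below. Of the 6 genes, 5 passed the filter on low values (at least 1 FPKM in at least 4 of 8 libraries), all but Pdgfb, and 3 of these 5 passed the test (limma, Benjamini-Hochberg adjusted p under 0.05). Over all 11280 genes tested 7.38% passed, 4.49% higher on TABS and 2.90% lower.

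**Figure D1:**
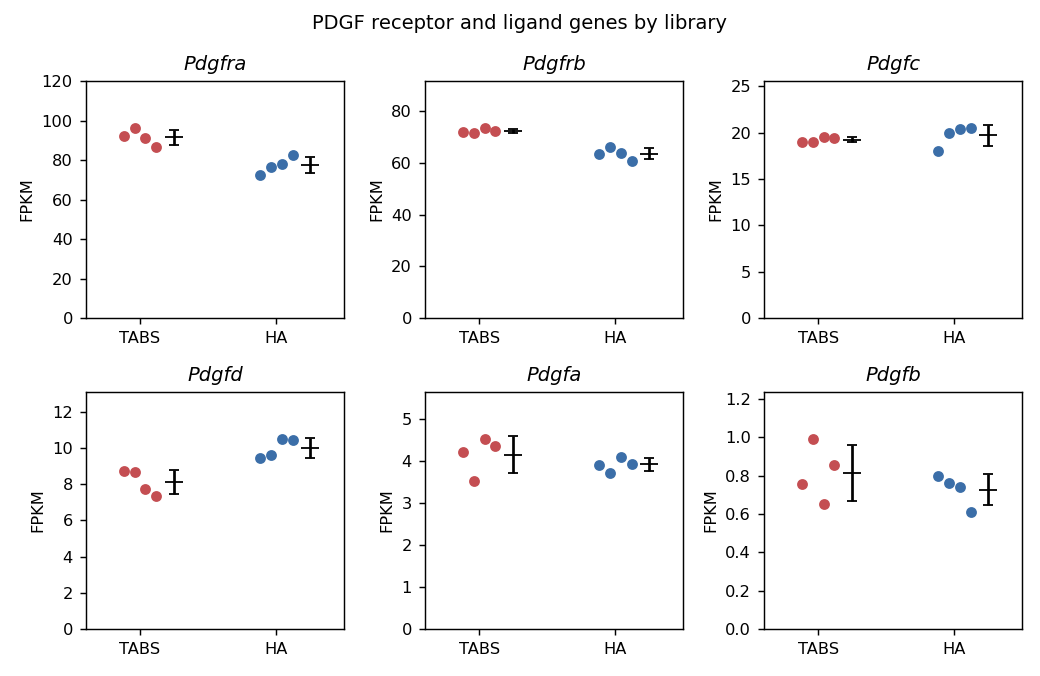
FPKM (vertical axes, each starting at 0) of the 6 PDGF genes in the 4 TABS libraries and the 4 HA libraries, 1 point per library, with the mean and SD beside them. All TABS points lie above all HA points in Pdgfra and Pdgfrb and below them in Pdgfd, and the groups overlap in Pdgfc, Pdgfa and Pdgfb.

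Promoter sequence is shown for Pdgfra, a receptor gene that was higher, and Pdgfd, the ligand gene that was lower, as the windows from 250 bases before to 50 bases after the RefSeq transcription start (build GRCm38.p6, 5′ to 3′ on the gene's own strand). RefSeq windows were at hand for 4 of the 6 genes. The Pdgfra window is chr5:75152001-75152300 on the plus strand and the Pdgfd window chr9:6168236-6168535 on the plus strand. Capitals mark matches, on either strand, to 4 motifs, which do not overlap one another here: the GC box with the letters GGGCGG, the box named CCAAT after its letters, the TATA box with the letters TATAAA and the AP-1 site with the letters TGANTCA.
Pdgfra: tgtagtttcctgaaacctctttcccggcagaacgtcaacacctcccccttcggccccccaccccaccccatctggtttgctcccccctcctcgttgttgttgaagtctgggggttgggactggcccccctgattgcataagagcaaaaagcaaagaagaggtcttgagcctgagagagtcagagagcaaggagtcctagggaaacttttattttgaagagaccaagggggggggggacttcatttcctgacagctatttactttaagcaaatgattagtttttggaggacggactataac
Pdgfd: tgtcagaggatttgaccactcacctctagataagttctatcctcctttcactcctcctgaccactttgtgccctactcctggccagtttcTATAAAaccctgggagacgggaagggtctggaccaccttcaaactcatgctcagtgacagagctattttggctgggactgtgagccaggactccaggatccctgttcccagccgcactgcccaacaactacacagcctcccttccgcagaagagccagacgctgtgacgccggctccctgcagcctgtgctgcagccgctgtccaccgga
The Pdgfra window held none of these letters and the Pdgfd window held 1 match, TATAAA, which begins 160 bases before the RefSeq start. The gene starts in the GENCODE annotation used for coordinates here lie 41 bases downstream of the RefSeq start in Pdgfra and 98 bases downstream in Pdgfd, so the Pdgfd window ends before the GENCODE start. Of 32851 windows of this length, 35.7% held a GC box, 37.4% a CCAAT box, 13.6% a TATA box and 7.81% an AP-1 site. The windows are 51.0% GC with 5 CpG in Pdgfra and 56.7% GC with 8 CpG in Pdgfd, against medians of 52.7% and 7 over all windows.

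All 8 libraries were used. Between 11187 and 11258 genes reached 1 FPKM on TABS and between 11219 and 11357 on HA, and no libraries held identical values. FPKM summed to 304893 to 307263 per library on TABS and 312629 to 317439 on HA, and mitochondrial genes took 10.2% to 12.2% of this sum on TABS and 12.1% to 14.5% on HA. Read totals are not in the table. Low values of single-exon genes, multiplied by length, fell on multiples of a common step more often than others. Were that step worth 1 fragment, a 1-kilobase transcript at 1 FPKM would hold 18.2 to 24.6 fragments on TABS and 21.0 to 26.0 on HA. All 8 osteoblast markers were tested, and 1 rose, 4 fell and 3 did not pass, with 7 of the 8 means lower on TABS. The shares of all tested genes were 4.49% higher and 2.90% lower. Spp1, osteopontin, averaged 3305 ± 239 FPKM on TABS and 2431 ± 259 on HA (SD, n = 4 each; 0.45, limma adjusted p = 0.0207), while Ibsp, bone sialoprotein, averaged 14.5 ± 1.32 and 50.3 ± 3.58 FPKM (-1.73, 1.5e-05). Sp7, the osterix gene (-0.49, limma adjusted p = 0.00071), Alpl, alkaline phosphatase, which passed the filter through the HA libraries alone (-0.68, 0.00267), and Col1a1, a collagen I chain (-0.39, 0.0269), were lower as well. The call on Spp1 was lost without TABS 1, TABS 2 or HA 2, and that on Col1a1 without any 1 of the TABS libraries or without HA 2. The 8 markers summed to 4647 to 5204 FPKM on TABS and 4338 to 4612 on HA, and without Spp1 to 1550 to 1678 and 1784 to 2256. Their part in the differences of the PDGF genes was not tested. Markers of other cells that could also carry PDGF receptors or ligands were summed too. Of 6 mural cell genes 1 was tested (summed level 11.9 to 12.7 FPKM on TABS and 10.4 to 12.8 on HA). Most of this sum was Cspg4, which is also listed among the co-receptors below, and Kcnj8 and Abcc9 were at 0. Of 5 endothelial genes 0 were tested (0.21 to 0.37 and 0.18 to 0.24 FPKM, with Kdr at 0). Of 5 macrophage or osteoclast genes 1 was tested (111 to 118 FPKM on TABS and 105 to 124 on HA, most of it Ctsk). Of 4 adipocyte genes 1 was tested (2.92 to 3.39 and 2.62 to 3.39 FPKM, most of it Fabp4).

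Pdgfra, the gene of the receptor that binds PDGF-A, -B and -C, had 92.4, 96.1, 91.4 and 86.5 FPKM in TABS libraries 1 to 4, against 72.7, 76.5, 78.1 and 82.6 FPKM in HA libraries 1 to 4. The lowest TABS library stood above the highest HA library, by a smaller margin than the range within either group. The difference was 0.24 ± 0.05 (SE) on the log2(FPKM + 1) scale, with limma adjusted p = 0.0252 and a 95% interval of 0.12 to 0.35, and mean FPKM was 18.2% higher on TABS. In bulk RNA, more cells with the transcript and more transcript per cell cannot be told apart. Pdgfra (ENSMUSG00000029231) lies on chromosome 5 of GRCm38 from 75152292 to 75198215 on the plus strand. Its exons overlap opposite-strand Gm42802 over 456 bases and Gm42803 over 166 bases, at most 0.93 and 1.68 FPKM in any library, and Mir7025 over 30 bases, and reads of overlapping genes cannot be told apart because no strand setting is given.

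Pdgfrb, the gene of the receptor for PDGF-B and PDGF-D, had 72.0, 71.4, 73.2 and 72.4 FPKM in TABS libraries 1 to 4, against 63.3, 66.0, 63.8 and 60.8 FPKM in HA libraries 1 to 4. The TABS libraries lay within 2 FPKM of one another and all above the HA libraries. The difference was 0.18 ± 0.04 (SE) on the log2(FPKM + 1) scale (limma adjusted p = 0.0214, 95% interval 0.10 to 0.27), and mean FPKM was 13.8% higher on TABS. Pdgfrb (ENSMUSG00000024620) lies on the plus strand of chromosome 18 from 61045150 to 61085061, with no exon shared with another annotated gene.

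Pdgfd, the gene of the latent ligand of PDGFRβ, had 8.72, 8.68, 7.76 and 7.35 FPKM in TABS libraries 1 to 4, against 9.47, 9.60, 10.5 and 10.5 FPKM in HA libraries 1 to 4. Every TABS library lay below every HA library. The difference was -0.27 ± 0.06 (SE) on the log2(FPKM + 1) scale (limma adjusted p = 0.0340, 95% interval -0.41 to -0.13), and mean FPKM on TABS was 0.812 times that on HA. The gene (ENSMUSG00000032006) lies on the plus strand of chromosome 9 from 6168584 to 6378850.

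Among the 5 tested PDGF genes the groups did not overlap in these 3, whereas over all tested genes they did not overlap in 18.0%. The median absolute difference of all genes that passed was 0.27, so the 3 changes were of a usual size or smaller. Transcript GC content was 48.1% in Pdgfra, 54.9% in Pdgfrb and 39.9% in Pdgfd, and differences between scaffolds correlated with transcript GC content (Spearman 0.35 across 11277 genes, not independent of one another). After correction for GC content and length the difference was 0.20 in Pdgfra (limma adjusted p = 0.0119), 0.11 in Pdgfrb (0.0487) and -0.17 in Pdgfd, which then did not pass (0.0624).

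The 3 calls lay close to the threshold. That on Pdgfra was lost without TABS 1, TABS 2, TABS 3, HA 2 or HA 3 (limma adjusted p 0.0582 to 0.0701). That on Pdgfrb was lost without any 1 of the TABS libraries or without HA 3 (0.0553 to 0.0689), and that on Pdgfd without TABS 3, TABS 4, HA 2, HA 3 or HA 4 (0.0579 to 0.0932). Without TABS 3 or HA 3, 0 of the 5 genes passed the adjusted test and 3 had an unadjusted limma p under 0.05. The differences themselves stayed within 0.21 to 0.27 for Pdgfra, 0.16 to 0.20 for Pdgfrb and -0.30 to -0.23 for Pdgfd.

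**Figure D2:**
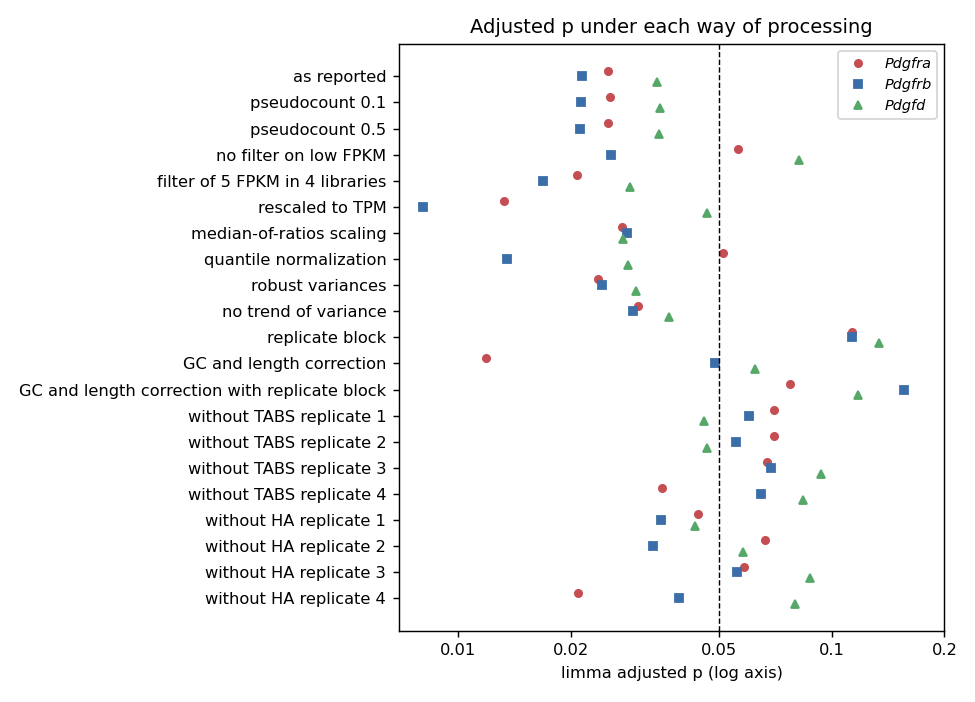
Limma adjusted p (horizontal log axis) of Pdgfra, Pdgfrb and Pdgfd as reported and under 20 alternatives (rows), with the threshold of 0.05 as a dashed line. Without TABS 3 or HA 3 all 3 genes lie right of the line, and the rows with a replicate block lie right of it too.

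Pdgfc, the gene of the latent ligand of PDGFRα, was the most abundant ligand transcript. It had 18.9, 19.0, 19.5 and 19.4 FPKM in TABS libraries 1 to 4, against 18.1, 19.9, 20.4 and 20.4 FPKM in HA libraries 1 to 4, and the TABS values all lay inside the HA range. The difference was -0.03 on the log2(FPKM + 1) scale with a 95% interval of -0.14 to 0.07 (limma adjusted p = 0.722). The gene (ENSMUSG00000028019) lies on the plus strand of chromosome 3 from 81036416 to 81214040, and 147 exonic bases are shared with opposite-strand Gm16000, which stayed at or under 0.091 FPKM.

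Pdgfa, the gene of the PDGF-A chain, had 4.22, 3.53, 4.52 and 4.35 FPKM in TABS libraries 1 to 4, against 3.92, 3.72, 4.10 and 3.94 FPKM in HA libraries 1 to 4. TABS 2 was the lowest of all 8 libraries and the other TABS libraries were the highest. The difference was 0.06, with a 95% interval of -0.08 to 0.21 (limma adjusted p = 0.596). Pdgfa (ENSMUSG00000025856) lies on the minus strand of chromosome 5 from 138976014 to 138997370, where 813 exonic bases are shared with opposite-strand 6330403L08Rik, a gene of up to 1.09 FPKM.

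Pdgfb, the gene of the PDGF-B chain, was the least abundant member and stayed under 1 FPKM in every library. It had 0.76, 0.99, 0.65 and 0.86 FPKM in TABS libraries 1 to 4, against 0.80, 0.76, 0.74 and 0.61 FPKM in HA libraries 1 to 4. With the step above read as 1 fragment and its longest transcript of 2944 bases, this was 40.5 to 71.7 fragments per library. The groups overlapped, and without the filter on low values the difference was 0.07 with a 95% interval of -0.09 to 0.23 (limma adjusted p = 0.713). The gene (ENSMUSG00000000489) lies on the minus strand of chromosome 15 from 79995874 to 80014977.

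**Figure D3:**
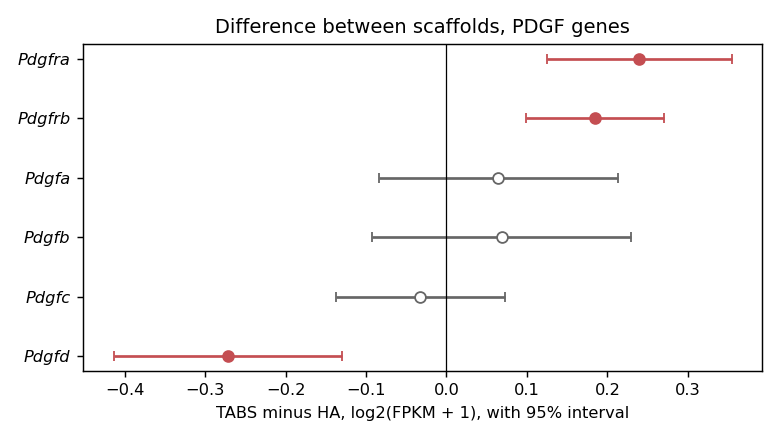
Difference between TABS and HA on the log2(FPKM + 1) scale (horizontal axis, TABS minus HA) with its 95% limma interval for the 6 PDGF genes. Filled points passed the test, and the Pdgfb value comes from the fit without a filter on low values. The intervals of Pdgfra and Pdgfrb lie above 0, that of Pdgfd below 0, and those of Pdgfa, Pdgfb and Pdgfc include 0.

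In each of the 8 libraries the order of levels was the same, with Pdgfra above Pdgfrb, then Pdgfc, Pdgfd, Pdgfa and Pdgfb. Neighbours in this order did not overlap across the 4 libraries of either group. By mean FPKM, Pdgfra ranked 501 and Pdgfrb 631 among the 11280 tested genes, Pdgfc 2421, Pdgfd 4712 and Pdgfa 7554.

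Ratios within a library show how the members stood to each other, and carry no test because they are built from genes chosen with results known. Pdgfrb stood at 0.780, 0.743, 0.801 and 0.837 of Pdgfra in TABS libraries 1 to 4, against 0.871, 0.864, 0.817 and 0.736 in HA libraries 1 to 4. Those ranges overlap, so the balance of the receptor transcripts was not separated by scaffold. The ratio of Pdgfc to Pdgfd, chosen after its values were seen, was 2.17, 2.19, 2.51 and 2.64 on TABS, against 1.91, 2.07, 1.94 and 1.95 on HA, without overlap. Pdgfd made up 25.2% ± 1.99 of summed ligand FPKM on TABS and 29.1% ± 0.60 on HA (SD, n = 4 each). Summed ligand FPKM was 32.0 to 32.6 on TABS and 32.2 to 35.7 on HA, which overlap, while the sum of both receptors was 159 to 168 and 136 to 143. Receptor FPKM was thus 5.07 ± 0.099 times ligand FPKM on TABS and 4.11 ± 0.12 times on HA. This ratio and the share of Pdgfd were not planned measures. They hold Pdgfra, Pdgfrb or Pdgfd, whose groups were already seen not to overlap.

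**Figure D4:**
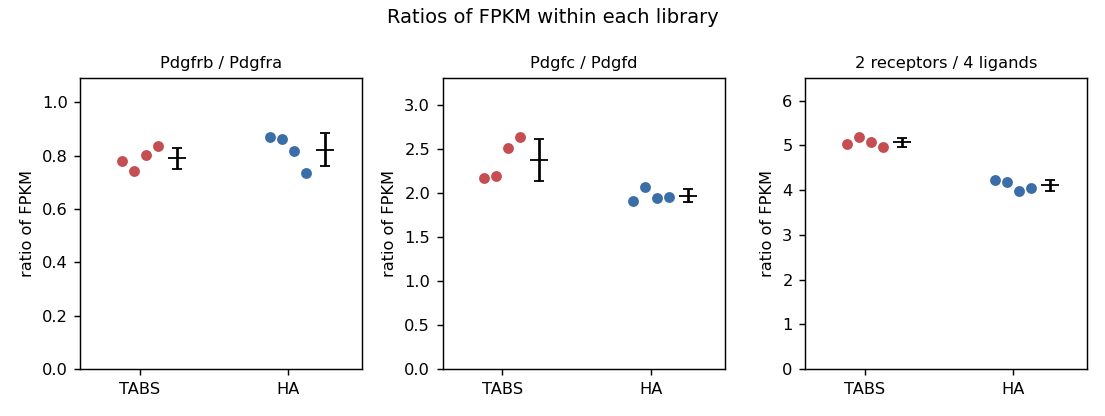
Ratios of FPKM within each library (vertical axes, each starting at 0) in the 4 TABS and the 4 HA libraries, with mean and SD. Pdgfrb to Pdgfra overlaps between scaffolds, whereas Pdgfc to Pdgfd and the 2 receptors to the 4 ligands do not. The latter 2 ratios were not planned and hold genes whose groups did not overlap.

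The genes around the receptors were described from 6 lists with 98 genes in all, of which 85 were tested. Of these 85, 11 rose, 5 fell and 69 did not pass (limma adjusted p under 0.05, or 12.9% higher and 5.88% lower, beside 4.49% and 2.90% of all tested genes), with a median difference of 0.05, against 0.0057 over all tested genes. With median-of-ratios scaling the split was 9 higher and 7 lower, beside 445 and 373 of all tested genes, and rescaled to TPM it was 16 and 5, beside 915 and 239. The share of calls that were higher was thus 56.3% in the lists and 54.4% over all tested genes with the first scaling, 76.2% and 79.3% with TPM, and 68.8% and 60.7% as reported. With quantile normalization it was 64.7% and 58.7%, and after the GC and length correction 64.7% and 51.1%. With 1 library left out the 11 became 6 without TABS 1, TABS 2, TABS 3, HA 1 or HA 4, 5 without TABS 4 or HA 2 and 9 without HA 3, and the 5 became 3 without TABS 3. Of the 16 genes that passed, 8 also passed in each of the 20 alternatives that tested them. They were Plat, Sparc, Lrp1, Pik3r1, Spry1, Jun, Fosl1 and Ccn1. Spry4, counted among the 11, passed the filter on low values through the TABS libraries alone.

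Among genes that process or bind the ligands, 1 of 6 tested rose, 1 fell and 4 did not pass, with a list median of 0.09. Of all tested genes 4.49% rose and 2.90% fell. Plat, tissue plasminogen activator, which can cut the CUB domain from PDGF-C, had 17.8, 18.1, 17.7 and 16.7 FPKM in TABS libraries 1 to 4, against 13.0, 13.7, 14.5 and 13.8 FPKM in HA libraries 1 to 4 (0.33 ± 0.04 SE, limma adjusted p = 0.00337). Plau, urokinase, which can activate PDGF-D, stood at 1.21 ± 0.21 FPKM on TABS and 1.56 ± 0.11 on HA (SD, n = 4 each) and did not pass (-0.21, limma adjusted p = 0.110). Sparc, a matrix protein that binds PDGF-B, had 314, 319, 322 and 323 FPKM in TABS libraries 1 to 4, against 454, 429, 403 and 399 FPKM in HA libraries 1 to 4 (-0.40 ± 0.05 SE, limma adjusted p = 0.00262). Plat and Sparc thus did not overlap between scaffolds, while Plau did. Plat, Sparc and Plau were named for the smallest adjusted p in this list, a choice that favours genes without overlap. Of all tested genes 18.0% did not overlap, in either direction.

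Among co-receptors and related receptors, 1 of 6 tested rose and 0 fell, also at an unadjusted limma p under 0.05. At the adjusted threshold 4.49% of all tested genes rose and 2.90% fell. Lrp1, an endocytic receptor that partners PDGFRβ, had 156, 149, 159 and 147 FPKM in TABS libraries 1 to 4, against 118, 116, 99.4 and 108 FPKM in HA libraries 1 to 4 (0.47 ± 0.06 SE, limma adjusted p = 0.00257). All 4 TABS libraries stood above all HA libraries. Lrp1 was named for its small adjusted p, and 18.0% of all tested genes did not overlap, in either direction. The integrin gene Itgb3 (4.13 ± 0.39 FPKM on TABS and 3.74 ± 0.14 on HA, limma adjusted p = 0.290) and the neuropilin gene Nrp1 (2.24 ± 0.10 and 2.41 ± 0.11 FPKM, 0.383) did not pass. Kit and Flt3, receptors of the same class, were listed at 0 in every library. Of the related ligand genes of the VEGF family 0 of 3 passed, with 2 at an unadjusted limma p under 0.05. Vegfd came nearest, at 14.0 ± 0.94 FPKM on TABS and 16.2 ± 0.73 on HA (-0.20, limma adjusted p = 0.0558), before Vegfb (0.16, 0.123) and Vegfa (-0.03, 0.817). Vegfd passed without TABS 4 (limma adjusted p = 0.0338), with a filter of 5 FPKM (0.0464), with median-of-ratios scaling (0.0457) and with quantile normalization (0.0385).

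Of 37 genes that relay the signal inside the cell, all tested, 3 rose, 1 fell and 33 did not pass. The shares over all tested genes were 4.49% higher and 2.90% lower. Pik3r1, the p85α regulatory subunit of PI3 kinase, which docks on activated PDGF receptors, had 18.2, 17.4, 17.0 and 16.6 FPKM in TABS libraries 1 to 4, against 22.5, 20.3, 21.2 and 23.1 FPKM in HA libraries 1 to 4 (-0.31 ± 0.05 SE, limma adjusted p = 0.00752). The adaptor gene Nck2 (0.29, 0.0375) and the Src-family kinase gene Fyn (0.20, 0.0488) were higher, as was Plcg1, phospholipase Cγ1, named after its values were seen (0.18, limma adjusted p = 0.0496). These last 3 lost their call in 11, 14 and 16 of the 20 alternatives. With 1 library left out, Nck2 kept it only without TABS 3 and Fyn only without HA 3, and Plcg1 lost it without any 1 library (limma adjusted p up to 0.0921, 0.123 and 0.125). The exons of Plcg1 share 379 bases with opposite-strand Zhx3, a gene of up to 11.9 FPKM, and 248 with Gm27206, at most 0.16 FPKM.

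Of 15 tested genes that damp the signal, 3 rose, 1 fell and 11 did not pass, beside 4.49% higher and 2.90% lower of all tested genes. Spry1, a feedback inhibitor of receptor tyrosine kinase signalling, had 3.67, 3.03, 3.28 and 3.09 FPKM in TABS libraries 1 to 4, against 1.95, 1.91, 2.20 and 1.73 FPKM in HA libraries 1 to 4 (0.53 ± 0.07 SE, limma adjusted p = 0.00230). Its relative Spry4 also rose (1.16 ± 0.060 FPKM on TABS and 0.83 ± 0.063 on HA, 0.24, limma adjusted p = 0.0228). Spry4 passed the filter on low values through the TABS libraries alone, and without that filter its call was lost (limma adjusted p = 0.0615). The ERK phosphatase gene Dusp6, named after its values were seen, rose too (16.4 ± 1.27 FPKM on TABS and 13.1 ± 1.19 on HA, 0.31, limma adjusted p = 0.0378). Ptpn2, a tyrosine phosphatase that acts on PDGFRβ, fell (5.61 ± 0.41 and 6.96 ± 0.37 FPKM, -0.27, limma adjusted p = 0.0265). The calls on Spry4, Dusp6 and Ptpn2 were lost in 8, 7 and 9 alternatives. With 1 library left out, Spry4 kept its call only without HA 1, HA 3 or HA 4, Dusp6 without TABS 1 or HA 3, and Ptpn2 without TABS 2 or HA 1 (limma adjusted p up to 0.0686, 0.101 and 0.0700 otherwise). The exons of Spry1 share 710 bases with opposite-strand Gm42922, at most 0.066 FPKM.

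Early response genes that PDGF is known to induce went both ways, with 3 of 18 tested higher, 2 lower and 13 not passing. This stands beside 4.49% higher and 2.90% lower of all tested genes. The AP-1 subunit gene Jun had 60.4, 61.4, 59.1 and 57.6 FPKM in TABS libraries 1 to 4, against 33.1, 39.3, 40.4 and 37.8 FPKM in HA libraries 1 to 4 (0.65 ± 0.06 SE, limma adjusted p = 0.000718). Fosl1, another AP-1 subunit gene, whose exons share 1163 bases with opposite-strand Ccdc85b, a gene of up to 13.0 FPKM, also rose (10.1 ± 0.96 FPKM on TABS and 6.67 ± 0.95 on HA, 0.53, limma adjusted p = 0.0122). Ccn1, a secreted matricellular protein, had 61.6, 65.3, 70.0 and 73.1 FPKM in TABS libraries 1 to 4, against 96.3, 90.9, 95.8 and 98.6 FPKM in HA libraries 1 to 4 (-0.50 ± 0.06 SE, limma adjusted p = 0.00169). Named after their values were seen, the phosphatase gene Dusp1 rose (0.29, limma adjusted p = 0.0362) and the hyaluronan synthase gene Has2 fell (-0.39, 0.0214). Dusp1 kept its call only without TABS 2 or HA 3 when 1 library was left out, and Has2 lost it without TABS 2, TABS 3, TABS 4 or HA 1. The exons of Jun share 232 bases with Junos and those of Has2 182 with Has2os, both on the opposite strand and at most 1.12 and 1.26 FPKM, and those of Dusp1 share 11 bases with opposite-strand Ergic1, which reached 44.4 FPKM. Fos, Fosb and Egr3 stayed under the filter.

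**Figure D5:**
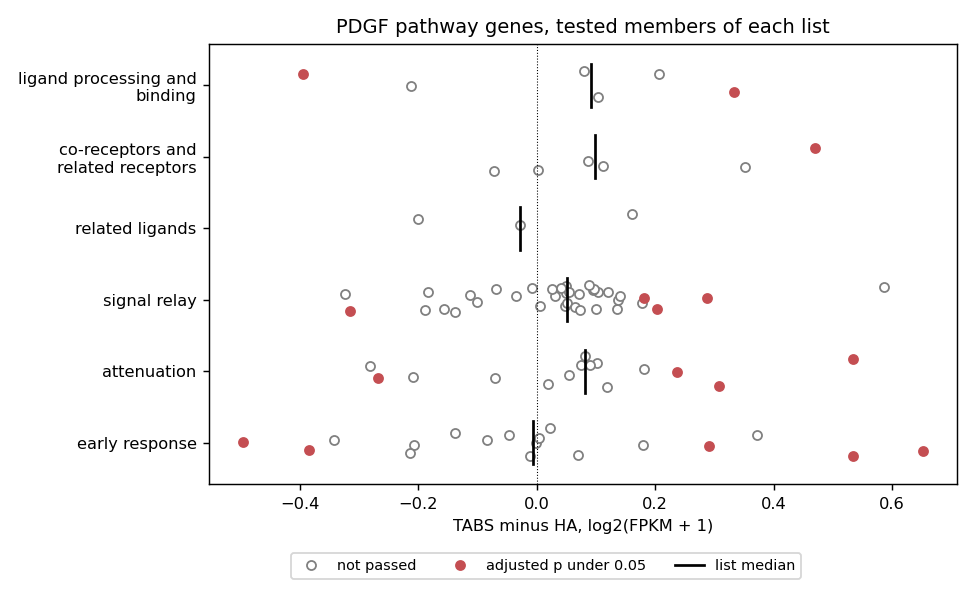
Difference between TABS and HA on the log2(FPKM + 1) scale (horizontal axis, TABS minus HA) for the 85 tested genes of the 6 PDGF pathway lists, 1 point per gene, with filled points past the test and a bar at each list's median. The medians lie between -0.03 and 0.10, and calls fall on both sides of 0 in 4 of the 6 lists.

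The genes whose log2(FPKM + 1) followed each member most closely over the 8 libraries are given as a description, since these points share the difference between scaffolds. For Pdgfra they were Tgfb2, Mturn and Fzd5 (Pearson r 0.994, 0.985 and 0.983), for Pdgfrb Fmnl3, Ptges and Ptprn (0.988, 0.987 and 0.987), and for Pdgfd Tdrd3, Ankrd23 and Uchl3 (0.978, 0.978 and 0.972). The groups did not overlap in these 9 genes either, in the direction of the member they followed. This largely follows from picking them by likeness to genes whose groups did not overlap. Ankrd23 lay near the filter on low values, with a mean of 0.88 FPKM on TABS and 1.21 on HA. Over all tested genes the groups did not overlap in 18.0%. Pdgfc was followed by Etfdh, Snora44 and Tmem135 (0.975, 0.973 and 0.969) and Pdgfa by Cdc45, Hps6 and Pgpep1 (0.955, 0.926 and 0.922), which overlapped between groups.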

How the data were processed

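RNA of 8 MC3T3-E1 libraries was taken up in TRIzol, and NEBNext Ultra libraries were read as paired ends of 150 bases, per the labels' protocols. The authors deposited 1 FPKM value per gene and library. Per the submitters' processing notes fastp, STAR, DESeq2 and build GRCm38 were used, with versions, annotation release, strand setting and the program behind FPKM not given in the sources used here. Symbols, coordinates and lengths came from GENCODE M21 (GRCm38), which held 55154 of 55335 identifiers. Only 27.8% to 29.7% of low values in single-exon genes were whole multiples of a step (within 0.02), so the values were not turned back into reads or put to a count test.

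Genes with at least 1 FPKM in at least 4 of 8 libraries (11280) entered limma (version 3.58.1, R 4.3.3) as log2 of FPKM plus 1, with variances that follow the level, no block, two-sided tests and Benjamini-Hochberg adjustment over all tested genes. This scale understates changes at low FPKM. The code was tested on simulated data with differences larger than those of the PDGF genes, so that test does not bear on changes of their size. The labels do not say whether replicates were separate cultures. If they were not, the p-values reflect technical spread alone. The members and lists were chosen with earlier results of these data known. Named genes were the 6 members, the 3 genes of each list with the smallest adjusted p, and the 3 most similar genes per tested member, without predicted gene models.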

Additional observations from a re-analysis of the deposited data

How the results depend on the processing

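Pdgfra, Pdgfrb and Pdgfd kept their direction in all 20 alternatives and passed in 11, 13 and 11 of them. With no filter on low FPKM 1 of the 6 members passed, with Pdgfra at 0.24 (limma adjusted p = 0.0560) and Pdgfd at -0.27 (0.0816) not passing, and the pathway lists held 5 higher and 3 lower genes. With quantile normalization Pdgfra did not pass (0.24, limma adjusted p = 0.0512). After the GC and length correction Pdgfd did not (-0.17, 0.0624). Deviations of same-numbered libraries correlated at 0.10, 0.050, -0.10 and -0.058, and 1 of the 4 numbers matched best with itself. These values carry no test and do not settle whether equal replicate numbers mark paired libraries. With the replicate number as a block 0 members passed (3 at an unadjusted limma p under 0.05), at 0.24 for Pdgfra (limma adjusted p = 0.113), 0.18 for Pdgfrb (0.113) and -0.27 for Pdgfd (0.134), with 7 pathway genes higher and 3 lower. With the block and the GC and length correction 0 members passed (3 unadjusted), at 0.20 (limma adjusted p = 0.0773), 0.11 (0.156) and -0.17 (0.118), with 7 pathway genes higher and 4 lower. With 1 library left out 0 to 3 members passed, 5 to 9 pathway genes were higher and 3 to 5 lower, and differences ran from 0.21 to 0.27 in Pdgfra, 0.16 to 0.20 in Pdgfrb, -0.30 to -0.23 in Pdgfd, 0.030 to 0.13 in Pdgfa, -0.07 to -0.015 in Pdgfc and -0.11 to -0.025 for the log2 ratio of Pdgfrb to Pdgfra. Rescaling to TPM moved the median difference of all tested genes from 0.0057 to 0.045. Pdgfc then turned to 0.0066 (limma adjusted p = 0.949) and Vegfa to 0.0087 (0.949). Over all tested genes, 506 higher and 327 lower as reported became 915 and 239 rescaled to TPM, 347 and 195 with no filter, 136 and 94 with the block, 152 and 157 with block and correction, and 247 to 429 and 168 to 289 with 1 library left out. The cause of these shifts was not tested, and leaving 1 library out also leaves fewer libraries in the fit.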
